A study of Mus musculus with 6 samples.

Results

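The 37 genes described here carry pyruvate into the mitochondrion, turn it into acetyl-CoA, run the citric acid cycle, and feed carbon into or out of it. They were chosen by name for their place in the pathway, by a rule that uses no measured value. The choice was made with earlier results of these data known. The names matched the gene symbols of the deposited tables for 37 of 37 among 46078 listed genes. All 37 passed the filter on low counts, which left 15568 genes for testing.

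The libraries were made from polyadenylated RNA of explanted mouse mesoderm, a germ layer formed at gastrulation from cells leaving the primitive streak. The study, on glucose metabolism in gastrulation, treated the explants with either of 2 inhibitors. There were 2 libraries from explants given 1 µM of an agent called PD for 16 h, 2 from explants given 10 µM YZ9 for 16 h, and 2 from control explants. All explants were dissected at E7.25, attached to fibronectin for 3 to 4 h, and kept in rat serum medium. YZ9 is a compound known to inhibit PFKFB3, whose product activates glycolysis, and the labels do not spell out PD. The labels call every sample wild type, while the design text names TCF/Lef:H2B-GFP reporter mice, in which WNT activity drives a nuclear fluorescent protein. Culture lasted 27 h by the growth protocol but 24 h by the design text, and the labels do not say whether controls received a vehicle.

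Pyruvate made by glycolysis in the cytosol crosses the inner mitochondrial membrane through the carrier formed by MPC1 and MPC2. The pyruvate dehydrogenase complex then makes acetyl-CoA from it, and is switched off by the PDK kinases and on again by the PDP phosphatases. The cycle burns acetyl-CoA for respiration, and in growing embryonic cells its intermediates also leave as building blocks, citrate for lipids and oxaloacetate for aspartate.

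Total counts were 27066702 and 25395141 in PD, 21253194 and 27810161 in YZ9, and 27231057 and 27529450 in control libraries, and a member had between 17 and 29594 counts in a library. The Xist and Y-linked counts placed PD replicate 2 and YZ9 replicate 2 as female and the other 4 libraries as male, so each inhibitor group held embryos of both sexes and the controls held none that were female. The sexes show that replicates within PD, and likewise within YZ9, are of different embryos. Beyond that, the origin of replicates, whether from separate embryos, cultures or neither, is not in the labels. The p-values therefore measure the spread between these samples alone, which may be technical in part.

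The labelled tissue was checked against marker genes, with levels in CPM, counts scaled by TMM to a common library size. All 9 mesoderm markers were measured, and their summed level was 1520 and 2239 CPM in PD, 1431 and 1865 CPM in YZ9, and 2093 and 1629 CPM in control libraries. Vim alone was at 849 and 763 CPM in PD, 853 and 547 CPM in YZ9, and 1283 and 1081 CPM in controls. The single markers did not all move the same way. Pdgfra was at 74.2 and 92.3 CPM in PD, 10.9 and 68.9 CPM in YZ9, and 25.1 and 18.0 CPM in controls. The 5 markers of the streak and of newly formed mesoderm summed to 0.308 and 0.644 CPM in PD, 4.17 and 20.8 CPM in YZ9, and 10.5 and 7.08 CPM in controls. Of these, T, Mesp1 and Tbx6 had between 0 and 8 counts in every library, while Eomes had 0 and 0 counts in PD, 67 and 281 in YZ9, and 185 and 145 in controls. Mixl1 had 1 and 6 counts in PD, 21 and 326 in YZ9, and 93 and 39 in controls. Other cell types differed between libraries. The 6 blood markers summed to 457 and 6476 CPM in PD, 25.5 and 1128 CPM in YZ9, and 2429 and 7328 CPM in controls. The 7 definitive endoderm markers, which include the epithelial genes Cldn6, Epcam and Cdh1, summed to 604 and 97.0 CPM in PD, 374 and 133 CPM in YZ9, and 12.6 and 19.6 CPM in controls. Cldn6 alone was at 449 and 56.5 CPM in PD, 200 and 75.5 CPM in YZ9, and 0.262 and 8.28 CPM in controls, and in control replicate 1 Sox17 made up 9.67 CPM of the sum. The 8 visceral endoderm markers summed to 58.4 and 18.7 CPM in PD, 14.7 and 15.1 CPM in YZ9, and 12.6 and 21.8 CPM in controls. Afp among them was at 34.3 and 5.76 CPM in PD, 0.313 and 1.79 CPM in YZ9, and 0.899 and 0.565 CPM in controls. Rhox5 was at 19.2 and 9.90 CPM in PD, 13.3 and 11.0 CPM in YZ9, and 10.0 and 18.0 CPM in controls. The 6 trophoblast markers summed to 5189 and 3985 CPM in PD, 3487 and 3207 CPM in YZ9, and 2759 and 2134 CPM in controls, nearly all of it the keratin gene Krt8, while the defining marker Elf5 had between 0 and 2 counts. Krt7 was at 292 and 37.3 CPM in PD, 119 and 34.5 CPM in YZ9, and 10.6 and 16.2 CPM in controls. Gata3 was at 36.1 and 16.7 CPM in PD, 52.9 and 47.3 CPM in YZ9, and 56.5 and 42.5 CPM in controls. The 6 ectoderm and epiblast markers summed to 6.65 and 13.7 CPM in PD, 9.14 and 14.9 CPM in YZ9, and 15.3 and 10.3 CPM in controls. Sox1 among them was at 0 counts in all 6 libraries, and Otx2 had between 62 and 301. The endothelial list ranged from 246 to 450.5 CPM over all libraries. The part of these cells in the results below was not tested. In such bulk libraries, fewer cells of a type and less RNA per cell cannot be told apart.

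None of the 37 genes passed the test in any of the 3 comparisons. With PD against control, 0 of 37 members were called, where 0.0964% of all genes were called, and the smallest adjusted p was 0.226. With YZ9 against control, 0 of 37 were called, against 0.00642% of all genes, and the smallest adjusted p was 0.380. With PD against YZ9, 0 of 37 were called, against 0.122% of all genes, and the smallest adjusted p was 0.250. These p-values come from edgeR's quasi-likelihood test with Benjamini-Hochberg adjustment over 15568 genes, as do all adjusted p-values below unless another tool is named. At an unadjusted p under 0.05, the members counted 3 (8.11%) with PD against control, where 10.8% of all genes did. The count was 1 (2.7%) with YZ9 against control, where 11.3% of all genes did, and 5 (13.5%) with PD against YZ9, where 11.5% of all genes did. These shares lay near or below those over all genes. DESeq2 on the same filtered genes called 1, 0 and 1 members in the same order of comparisons, where it called 4.04%, 3.33% and 3.88% of the genes it gave an adjusted p, and limma-trend called 0 in each.

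The median log2 fold change of the 37 genes was -0.01 with PD against control, -0.06 with YZ9 against control and 0.09 with PD against YZ9, where the median over all genes was 0.00 in each. Disregarding the sign, the median was 0.14, 0.17 and 0.21 in the same order, where it was 0.27, 0.32 and 0.31 over all genes. The 95% interval lay within a 2-fold difference either way for 27 members with PD against control, 30 with YZ9 against control and 27 with PD against YZ9. Among all genes, 43.9%, 41.7% and 42.0% had such an interval. The members were also read more deeply, with a median level of 114 CPM against 14.2 CPM over all genes tested, and deeper genes have narrower intervals. For 25 members the interval lay within 2-fold in all 3 comparisons. For the other 12, these 6 libraries do not bound the difference that closely.

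**Figure D1:**
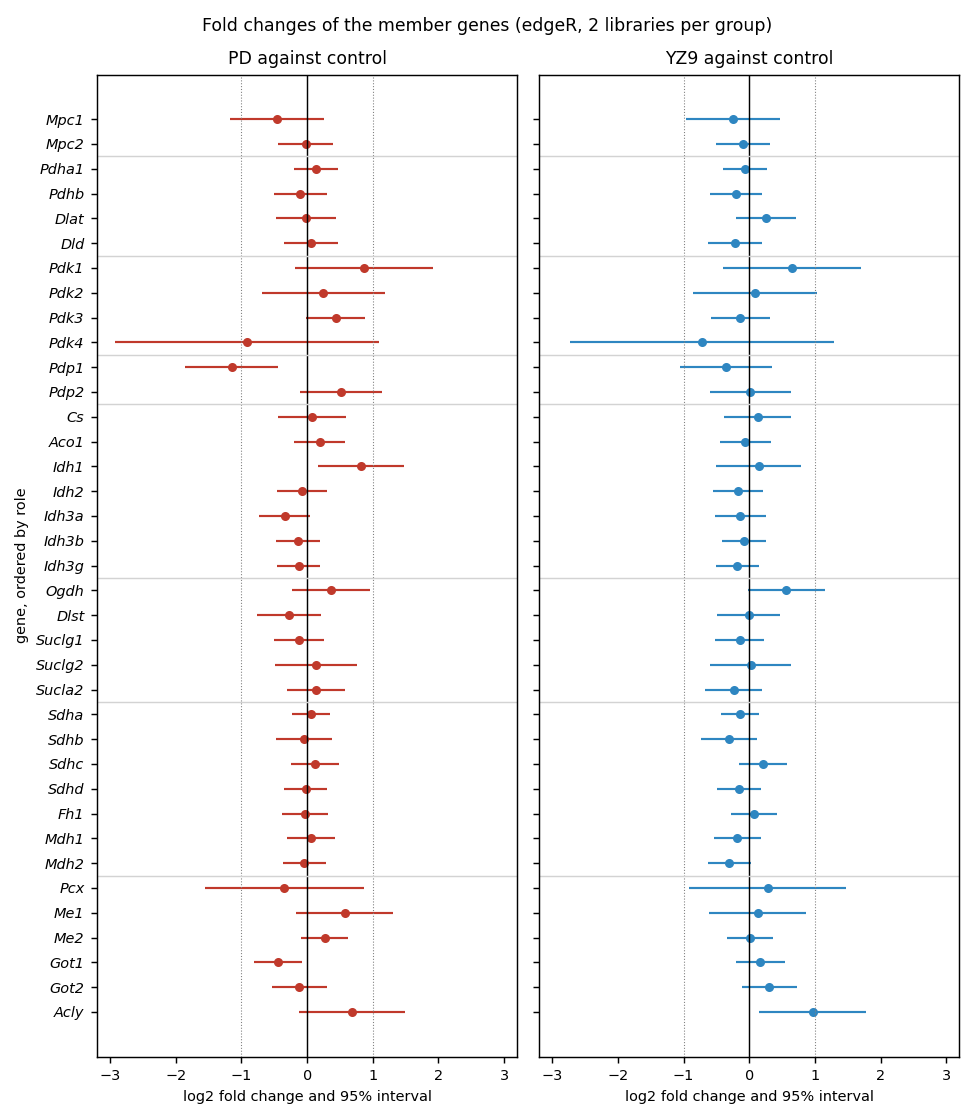
Log2 fold change of each of the 37 genes with its 95% interval in PD against control (left) and YZ9 against control (right), grouped by role, with dotted lines at a 2-fold difference. Every member stayed above an adjusted p of 0.05, and Pdk4 has the widest interval in both panels (-2.93 to 1.10 with PD).

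Members whose groups did not overlap were counted next. With PD, both libraries lay above both controls for 6 members and below for 7, where 19.2% and 19.5% of all genes did so. With YZ9, both libraries lay above both controls for 7 members and below for 7, where 21.1% and 24.5% of all genes did so. Between the inhibitors, both PD libraries lay above both YZ9 libraries for 14 members (37.8%), where 21.6% of all genes did so, and below for 8 (21.6%), where 21.4% did so. The 14 were Mpc2, Pdha1, Pdhb, Dld, Pdk3, Pdp2, Aco1, Idh1, Sucla2, Sdha, Sdhb, Mdh1, Mdh2 and Me2. The sum over all 37 genes was 6286 and 6539 CPM in PD, 5872 and 5867 CPM in YZ9, and 5975 and 6332 CPM in control libraries. These positions rest in part on the TMM scaling. As an unscaled share of a library's counts the members made up 0.604% and 0.640% in PD, 0.617% and 0.626% in YZ9, and 0.586% and 0.611% in controls, and there the YZ9 libraries lay between the PD libraries. Dividing by total counts in place of TMM moves the median log2 fold change of all genes to 0.12 with YZ9 against control and -0.13 with PD against YZ9, and that of the members to 0.06 and -0.03. On that scale both PD libraries lay above both YZ9 libraries for 8 members (21.6%), where 14.4% of all genes did so, and below for 13 (35.1%), where 31.1% did so. Both YZ9 libraries then lay above both controls for 11 members (29.7%, and 30.5% of all genes) and below for 1 (2.7%, and 17.3% of all genes), Mdh2. The median difference between the inhibitors with TMM, 0.09 on the log2 scale, became -0.02 when PD replicate 2 was left out.

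**Figure D2:**
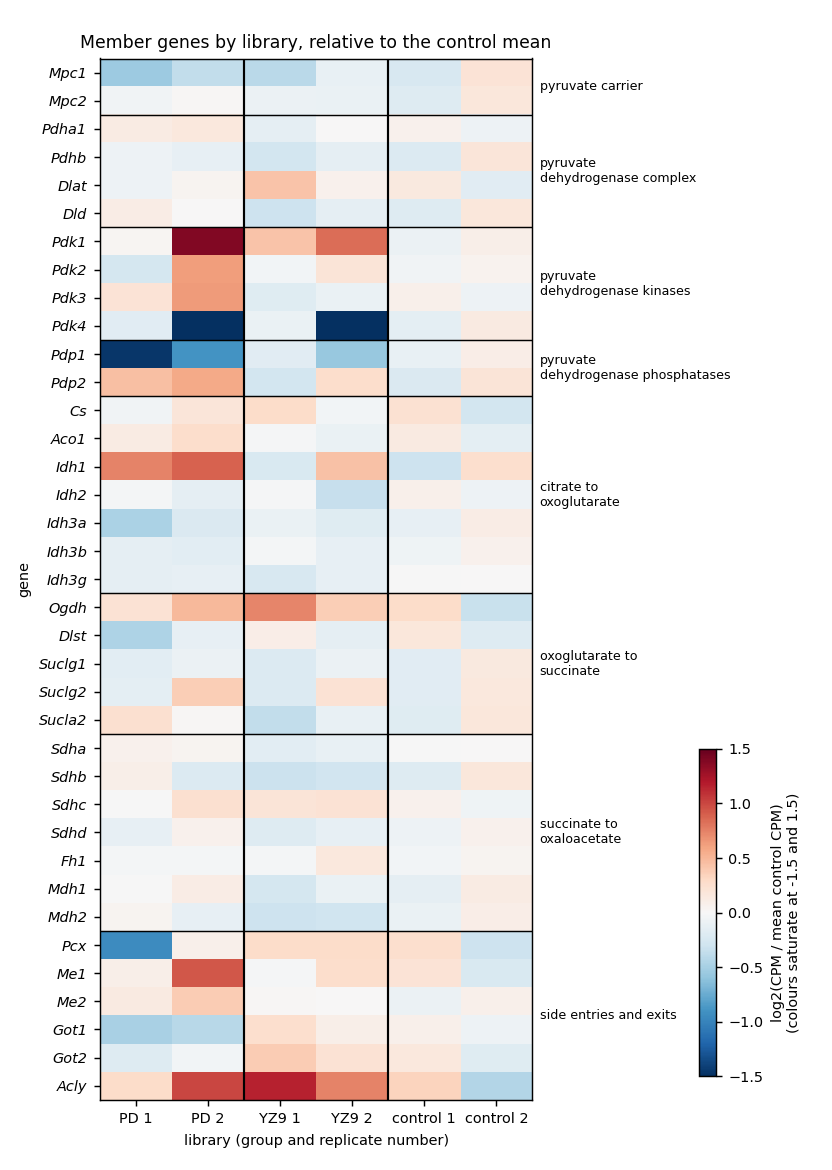
Log2 ratio of each member's CPM to its mean in the controls, 1 row per gene grouped by role and 1 column per library. Most rows are pale in all 6 columns, and the deeper colours stand in single libraries, such as Pdk4 in PD replicate 2 and YZ9 replicate 2 (0.684 and 1.15 CPM), or in both libraries of a group, such as Pdp1 and Idh1 in PD and Acly in YZ9.

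Within the set, levels spanned a wide range, compared here per kb of a gene's exons, summed over all its annotated transcripts. This length can exceed that of the transcript expressed, which lowers the value per kb. It is 9.56 kb for Dlst, 7.34 kb for Mpc2 and 1.23 kb for Sdhd, so the order rests in part on the annotation. In the controls the highest were Mdh2, the mitochondrial malate dehydrogenase, at 293 ± 27.96 CPM per kb, and Sdhd, a membrane anchor of succinate dehydrogenase, at 285 ± 19.3 CPM per kb (SD, n = 2 for every mean below). Sdhb, its iron-sulfur subunit, followed at 188 ± 34.3 CPM per kb. At the bottom stood Pcx, pyruvate carboxylase, which makes oxaloacetate from pyruvate, at 0.450 ± 0.122 CPM per kb, 651-fold below Mdh2. Above it came 3 of the 4 pyruvate dehydrogenase kinases, Pdk4 at 1.13 ± 0.155, Pdk2 at 1.41 ± 0.0715 and Pdk1 at 1.76 ± 0.156 CPM per kb. Of the 36 pairs of neighbours in the order, 24 had control libraries that overlapped, so their order is not fixed by these data. Pcx was also under 1 CPM per kb in both PD and both YZ9 libraries, while Mdh2 was at 284 ± 22.9 CPM per kb in PD and 237 ± 2.34 CPM per kb in YZ9.

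**Figure D3:**
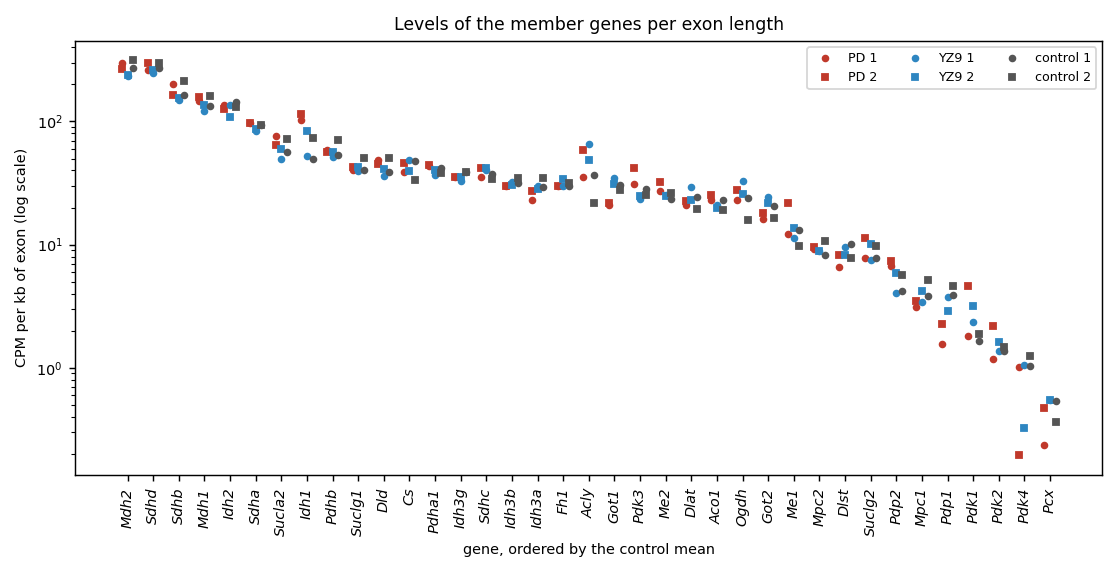
CPM per kb of exon on a log axis for each member in each of the 6 libraries, ordered by the mean of the controls. The order runs from Mdh2 at 293 to Pcx at 0.450 CPM per kb in controls, and the points of the 3 groups lie close together for most genes.

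The 2 carrier subunits come first along the path. Mpc1 was at 6.46 and 7.29 CPM in PD, 7.12 and 8.70 CPM in YZ9, and 7.98 and 10.8 CPM in control libraries. The PD values lay below both controls, but the difference was not called (log2 fold change -0.45, SE 0.30, adjusted p = 0.701). Mpc2 was at 67.1 and 70.2 CPM in PD, 65.5 and 64.8 CPM in YZ9, and 60.8 and 78.4 CPM in controls, with both inhibitor groups inside the range of the controls. Per kb, Mpc2 stood above Mpc1 by 2.95-fold and 2.73-fold in PD, 2.61-fold and 2.11-fold in YZ9, and 2.16-fold and 2.05-fold in controls. The summed exon lengths behind this ratio are 7.34 kb for Mpc2 and 2.08 kb for Mpc1. Mpc1 shares 480 bases of exon with a gene on the opposite strand, and as the library kit keeps no strand, reads there cannot be assigned.

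The 4 genes of the pyruvate dehydrogenase complex (Pdha1 and Pdhb of its decarboxylase, Dlat its acetyltransferase, Dld the lipoamide dehydrogenase that it shares with other complexes) differed little. Their log2 fold changes lay between -0.10 and 0.14 with PD and between -0.22 and 0.26 with YZ9, and all 8 intervals stayed within 2-fold. Pdha1, the X-linked subunit that the kinases phosphorylate, was at 162 and 167 CPM in PD, 136 and 151 CPM in YZ9, and 157 and 142 CPM in controls. The PD values lay above both controls by a small margin (log2 fold change 0.14, SE 0.14, 95% interval -0.20 to 0.47, adjusted p = 0.848). Exons of Pdha1 overlap Map3k15 on the opposite strand.

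Of the 4 kinases, which inactivate the complex, Pdk3 made up most of the summed level per kb. Its share was 88.6% and 85.6% in PD, 83.1% and 83.1% in YZ9, and 87.4% and 84.7% in control libraries. Pdk3, an X-linked gene (chromosome X, 93764607 to 93832201, GRCm38), was at 79.0 and 106 CPM in PD, 60.2 and 64.05 CPM in YZ9, and 71.9 and 65.0 CPM in controls. Both PD libraries thus lay above both controls, and both YZ9 libraries lay just below them, but per total counts the YZ9 libraries (63.3 and 68.3 CPM) overlapped the controls (70.5 and 62.8 CPM). Against control, the log2 fold change with PD was 0.44 (SE 0.19, adjusted p = 0.487), which fitted with sex as a covariate was 0.29 and without PD replicate 2 was 0.21. With YZ9 it was -0.14 (SE 0.19, adjusted p = 0.803). Between the inhibitors it was 0.58 (SE 0.19, 95% interval 0.13 to 1.03, adjusted p = 0.349). The higher PD library is female, and among the male libraries PD replicate 1 stood at 79.0 CPM, YZ9 replicate 1 at 60.2 CPM, and the controls at 71.9 and 65.0 CPM.

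Pdk1, a kinase gene known as a target of hypoxia-inducible factor, was at 14.0 and 35.7 CPM in PD, 18.4 and 24.5 CPM in YZ9, and 12.8 and 14.5 CPM in controls. The 2 PD libraries stood apart from each other, and PD replicate 1 lay between the controls. Its log2 fold change with PD was 0.86 (SE 0.44, adjusted p = 0.574). Leaving out PD replicate 2 gave 0.029, and leaving out PD replicate 1 gave 1.39. Both YZ9 libraries lay above both controls (log2 fold change 0.65, SE 0.44, adjusted p = 0.612). With sex as a covariate, Pdk1 had a log2 fold change of 0.29 with PD and 0.21 with YZ9. PD replicate 2 and YZ9 replicate 2 are the female libraries and hold more blood marker RNA than the other library of their group. Control replicate 2, a male library, holds the most blood marker RNA and had 14.5 CPM of Pdk1. The part of sex or of blood cells in the Pdk1 values was not tested.

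Pdk2 was at 3.73 and 6.88 CPM in PD, 4.34 and 5.13 CPM in YZ9, and 4.31 and 4.63 CPM in controls. The PD libraries enclosed the controls, and the log2 fold change of 0.25 (SE 0.39, adjusted p = 0.917) became -0.26 without PD replicate 2. Pdk4, a kinase gene induced by fasting in muscle and liver, had 92 and 17 counts in PD, 83 and 34 counts in YZ9, and 96 and 116 counts in controls. That is 3.54 and 0.684 CPM in PD, 3.72 and 1.15 CPM in YZ9, and 3.60 and 4.37 CPM in controls. Replicate 1 of each inhibitor group was near the controls and replicate 2 was far below them. The log2 fold change with PD of -0.91 (SE 0.84, 95% interval -2.93 to 1.10, adjusted p = 0.821) became -0.17 without PD replicate 2 and -2.53 without PD replicate 1. Pdk1 and Pdk4 thus set the female libraries of both inhibitor groups apart in opposite directions. As both controls are male, sex and the difference between libraries of a group cannot be told apart here.

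The 2 phosphatases, which reactivate the complex, lay on opposite sides of the controls with PD. Pdp1 (chromosome 4, 11958184 to 11966452) was at 6.997 and 10.3 CPM in PD, 17.0 and 13.0 CPM in YZ9, and 17.7 and 20.6 CPM in controls. Both PD libraries were the lowest of the 6, and YZ9 lay between. This was the member with the smallest p with PD against control (log2 fold change -1.15, SE 0.30, 95% interval -1.86 to -0.44, unadjusted p = 0.00666, adjusted p = 0.226). DESeq2 called it on these 6 libraries, with an adjusted p of 0.0196 after the filter on low counts and 0.0201 with no filter, where it called 4.04% and 3.99% of the genes it gave an adjusted p. In the authors' deposited table, Pdp1 has a log2 fold change of -1.15 and an adjusted p of 0.0349, and 3.67% of the genes given an adjusted p there lie below 0.05. It was the only member below 0.05 in that table. Leaving out libraries gave log2 fold changes of -1.45 to -0.90 and adjusted p from 0.206 to 0.712 in edgeR. With YZ9 the log2 fold change was -0.36 (SE 0.29, adjusted p = 0.676), and between the inhibitors it was -0.80 (SE 0.29, 95% interval -1.5 to -0.09, adjusted p = 0.396).

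Pdp2 (chromosome 8, 104591451 to 104599026) was at 38.4 and 41.5 CPM in PD, 23.1 and 33.6 CPM in YZ9, and 24.0 and 32.0 CPM in controls. Both PD libraries lay above both controls (log2 fold change 0.51, SE 0.26, adjusted p = 0.570). Per kb, Pdp2 over Pdp1 was 4.34 and 3.205 in PD, 1.07 and 2.05 in YZ9, and 1.07 and 1.23 in control libraries. The ratio within a library does not depend on its scaling, and the PD values did not overlap the other 4. Pdp2 was not among the members set to be named, and how often other gene pairs do so was not counted. Summed kinases over summed phosphatases, again per kb, stood at 4.20 and 5.06 in PD, 3.62 and 3.43 in YZ9, and 3.94 and 2.94 in controls. The PD libraries lay above both controls and the YZ9 libraries lay between them.

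**Figure D4:**
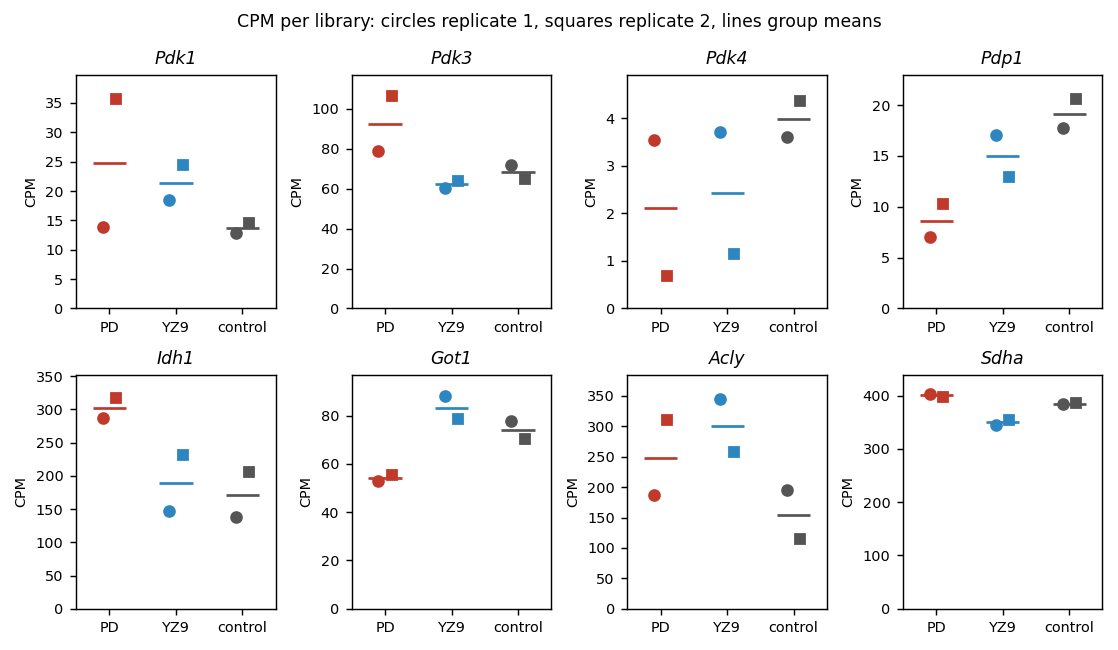
CPM of 8 members in each library of the PD, YZ9 and control groups, with a circle for replicate 1, a square for replicate 2 and a line at the group mean. Pdp1 was lowest in both PD libraries (6.997 and 10.3 CPM) and Idh1 highest in them (287 and 317 CPM), while Pdk1 and Pdk4 separate the 2 libraries of an inhibitor group.

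Citrate synthase, aconitase and the isocitrate dehydrogenases take acetyl-CoA to oxoglutarate. Cs, the citrate synthase that opens the cycle, was at 226 and 266 CPM in PD, 282 and 227 CPM in YZ9, and 275 and 193 CPM in controls. The groups overlapped (log2 fold change 0.07 with PD and 0.13 with YZ9, adjusted p = 0.961 and 0.851). Idh1, the cytosolic enzyme that makes NADPH (chromosome 1, 65158616 to 65186500), was at 287 and 317 CPM in PD, 146 and 232 CPM in YZ9, and 138 and 205 CPM in controls. Both PD libraries stood above the other 4. The log2 fold change with PD was 0.81 (SE 0.27, 95% interval 0.16 to 1.47, unadjusted p = 0.0223, adjusted p = 0.333), with YZ9 it was 0.14 (SE 0.27, adjusted p = 0.871), and between the inhibitors 0.67 (SE 0.27, adjusted p = 0.426). The YZ9 libraries stood apart, and the difference between the inhibitors was 0.37 without YZ9 replicate 1 and 1.03 without YZ9 replicate 2. Without the filter on low counts Idh1 passed with PD (adjusted p = 0.0282), in a fit that called 2.71% of all genes. Its value with PD against control ranged from 0.56 without control replicate 1 to 1.12 without control replicate 2.

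Idh2, the mitochondrial enzyme with the same cofactor, did not share this pattern, with log2 fold changes of -0.08 with PD and -0.18 with YZ9. The ratio of Idh1 to Idh2 per kb was 0.764 and 0.911 in PD, 0.388 and 0.771 in YZ9, and 0.344 and 0.564 in control libraries. YZ9 replicate 2 thus reached the PD range. For the 3 subunits of the NAD-dependent enzyme, Idh3a, Idh3b and Idh3g, both PD libraries lay below both controls, as they did for 18.9% of all members and 19.5% of all genes. Idh3a, the catalytic subunit, was at 117 and 139 CPM in PD, 151 and 143 CPM in YZ9, and 149 and 175 CPM in controls (PD log2 fold change -0.34, SE 0.16, adjusted p = 0.545). Idh3b and Idh3g had log2 fold changes of -0.14 and -0.13 with PD (adjusted p = 0.833 and 0.858). Aco1, the cytosolic aconitase that also binds iron-responsive elements, had 0.19 with PD and -0.06 with YZ9.

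The next steps lead to succinate. Ogdh, the decarboxylase of the oxoglutarate dehydrogenase complex (chromosome 11, 6291633 to 6356642), was at 126 and 153 CPM in PD, 181 and 141 CPM in YZ9, and 131 and 85.8 CPM in controls. Both YZ9 libraries lay above both controls, which themselves stood apart (log2 fold change 0.57, SE 0.25, 95% interval -0.03 to 1.16, adjusted p = 0.457). It became 0.29 without control replicate 2 and 0.90 without control replicate 1. Dlst, the succinyltransferase of the same complex, had log2 fold changes of -0.28 with PD and -0.01 with YZ9. Sucla2, the ATP-forming subunit of succinyl-CoA synthetase (chromosome 14, 73525319 to 73596142), was at 303 and 258 CPM in PD, 198 and 236 CPM in YZ9, and 225 and 287 CPM in controls. PD lay above YZ9 with the controls across both (log2 fold change 0.37 for PD against YZ9, SE 0.18, adjusted p = 0.507). Suclg1, the subunit common to both forms, and Suclg2, the GTP-forming one, had log2 fold changes between -0.14 and 0.13 against control. Per kb, Sucla2 stood above Suclg2 by 9.68-fold and 5.78-fold in PD, 6.57-fold and 5.86-fold in YZ9, and 7.30-fold and 7.44-fold in controls.

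The last stretch, from succinate to oxaloacetate, gave log2 fold changes between -0.05 and 0.12 with PD for its 7 genes, with all intervals within 2-fold. With YZ9, 4 of the 7 had both libraries below both controls, Sdha, Sdhb, Sdhd and Mdh2, and 1, Sdhc, had both above, where 24.5% and 21.1% of all genes did so. Per total counts only Mdh2 of the 4 kept both YZ9 libraries below both controls, and Sdhc stayed above. Mdh2 (chromosome 5, 135778480 to 135790398) was at 1071 and 955 CPM in PD, 838 and 850.2 CPM in YZ9, and 973 and 1114 CPM in controls (YZ9 log2 fold change -0.31, SE 0.14, 95% interval -0.63 to 0.02, adjusted p = 0.463). Sdhb was at 449 and 365 CPM in PD, 336 and 346 CPM in YZ9, and 367 and 476 CPM in controls (YZ9 log2 fold change -0.30, SE 0.18, adjusted p = 0.568). Sdha, the flavoprotein subunit of succinate dehydrogenase, is named here after its values were seen. It was at 404 and 397 CPM in PD, 345 and 355 CPM in YZ9, and 384 and 386 CPM in controls. The PD libraries lay just above both controls and the YZ9 libraries just below, but per total counts YZ9 (362 and 379 CPM) overlapped the controls (376 and 373 CPM). The log2 fold change between the inhibitors was 0.19 (SE 0.12, 95% interval -0.10 to 0.48, adjusted p = 0.590). Fh1 and Mdh1, fumarase and the cytosolic malate dehydrogenase, had values between -0.18 and 0.07 against control.

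Carbon enters and leaves the cycle at 6 further genes. All 6 had a log2 fold change above 0 with YZ9, as did 7808 of the 15568 genes tested, and that of Me2 was 0.012. For 4 of them both YZ9 libraries lay above both controls, where 21.1% of all genes did so. Per total counts Pcx, Got1, Got2 and Acly kept that position and Me2 joined them, where 30.5% of all genes held it. Acly, which splits exported citrate into acetyl-CoA for lipid synthesis (chromosome 11, 100476353 to 100528000), was at 188 and 310.0 CPM in PD, 345 and 258 CPM in YZ9, and 195 and 114 CPM in controls. The YZ9 libraries lay above both controls, the PD libraries overlapped them. With YZ9 it was the member with the smallest p (log2 fold change 0.96, SE 0.34, 95% interval 0.15 to 1.77, unadjusted p = 0.0263, adjusted p = 0.380). It became 1.398 without control replicate 1 and 0.63 without control replicate 2. Without the filter on low counts it passed (adjusted p = 0.0170), in a fit that called 2.11% of all genes. In the authors' deposited table, Acly has a log2 fold change of 0.99 with YZ9 and an adjusted p of 0.0403, as the only member below 0.05 there, where 3.85% of the genes given an adjusted p lie below it. With PD the log2 fold change was 0.69 (SE 0.34, adjusted p = 0.554), and 0.28 when PD replicate 2 was left out.

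The aspartate aminotransferases interconvert oxaloacetate and aspartate and take part in the malate-aspartate shuttle. Got1, the cytosolic enzyme (chromosome 19, 43499752 to 43524605), was at 52.9 and 55.6 CPM in PD, 88.0 and 78.5 CPM in YZ9, and 77.8 and 70.2 CPM in controls. The 3 groups did not overlap, with PD below and YZ9 above the controls. Between the inhibitors it was the member with the smallest p (log2 fold change -0.62, SE 0.15, 95% interval -0.99 to -0.25, unadjusted p = 0.00589, adjusted p = 0.250). DESeq2 on the filtered genes called this difference (adjusted p = 0.0333), where it called 3.88% of the 13757 genes it gave an adjusted p, and DESeq2 without the filter did not. Against control, PD gave -0.45 (SE 0.15, 95% interval -0.82 to -0.08, adjusted p = 0.347) and YZ9 gave 0.17 (SE 0.15, adjusted p = 0.704).

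Got2, the mitochondrial enzyme (chromosome 8, 95864134 to 95888547), was at 78.2 and 86.6 CPM in PD, 116 and 104 CPM in YZ9, and 100.02 and 78.7 CPM in controls. YZ9 again lay above the other groups (0.30 against control, SE 0.18, adjusted p = 0.563) and PD lay below YZ9 (-0.42, SE 0.18, adjusted p = 0.434). Got1 over Got2 per kb was 1.29 and 1.22 in PD, 1.44 and 1.43 in YZ9, and 1.48 and 1.69 in controls, with the PD libraries lowest. Got2 shares 434 bases of exon with a gene on the opposite strand. Neither of its 2 pseudogene copies among the listed genes held more than 0.0615% of its counts.

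Pcx was at 1.11 and 2.25 CPM in PD, 2.60 and 2.60 CPM in YZ9, and 2.55 and 1.73 CPM in controls, with wide intervals (PD log2 fold change -0.35, SE 0.50, 95% interval -1.55 to 0.86, adjusted p = 0.906). The malic enzymes make pyruvate from malate. Me1, the cytosolic one, was at 46.7 and 83.5 CPM in PD, 43.4 and 52.5 CPM in YZ9, and 50.4 and 37.3 CPM in controls, the high value being that of PD replicate 2 (log2 fold change 0.57, SE 0.31, adjusted p = 0.606). Me2, a mitochondrial one, had both PD libraries above both controls (log2 fold change 0.27, SE 0.15, adjusted p = 0.622).

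The promoter stretch before the start site was read for the members that stood on opposite sides of the controls with the 2 inhibitors under TMM (Got1, Pdk3, Sdha) and for Idh1 and Acly, all 5 chosen after their values were seen. For Pdp1 no window was matched. The 250 bases before the RefSeq start are printed 5′ to 3′ on the gene's strand. Capitals mark matches to any of 4 motifs searched on both strands. These were an NRF1 motif, CCGGAAG of ETS factors, the CCAAT box and ACGTG, the core bound by hypoxia-inducible and related factors. The NRF1 motif was the NRF1 palindrome with 1 of its letters left free, so a match need not be a palindrome.
Got1 (GRCm38.p6, chr19:43524606-43524855, minus strand): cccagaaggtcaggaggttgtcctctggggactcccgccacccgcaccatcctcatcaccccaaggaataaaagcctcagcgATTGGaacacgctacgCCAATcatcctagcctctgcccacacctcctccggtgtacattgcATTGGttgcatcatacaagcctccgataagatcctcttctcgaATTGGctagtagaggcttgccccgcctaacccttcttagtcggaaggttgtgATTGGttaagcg
Pdk3 (GRCm38.p6, chrX:93832151-93832400, minus strand): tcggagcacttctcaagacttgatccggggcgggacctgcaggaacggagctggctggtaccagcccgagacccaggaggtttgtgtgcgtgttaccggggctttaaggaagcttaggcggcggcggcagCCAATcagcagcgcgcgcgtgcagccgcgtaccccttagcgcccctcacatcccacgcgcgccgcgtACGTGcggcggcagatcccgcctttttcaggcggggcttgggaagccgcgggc
Sdha (GRCm38.p6, chr13:74350241-74350490, minus strand): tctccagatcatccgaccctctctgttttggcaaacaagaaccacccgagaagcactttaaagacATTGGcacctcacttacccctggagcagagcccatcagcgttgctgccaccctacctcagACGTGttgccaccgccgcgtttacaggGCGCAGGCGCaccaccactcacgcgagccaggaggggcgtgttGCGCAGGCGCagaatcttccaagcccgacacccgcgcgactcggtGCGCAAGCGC
Idh1 (GRCm38.p6, chr1:65186480-65186729, minus strand): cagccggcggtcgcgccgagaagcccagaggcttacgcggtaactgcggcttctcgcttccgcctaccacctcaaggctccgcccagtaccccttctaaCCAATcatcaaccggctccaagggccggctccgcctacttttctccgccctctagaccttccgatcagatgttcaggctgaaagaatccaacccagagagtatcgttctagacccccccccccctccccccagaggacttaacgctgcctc
Acly (GRCm38.p6, chr11:100528001-100528250, minus strand): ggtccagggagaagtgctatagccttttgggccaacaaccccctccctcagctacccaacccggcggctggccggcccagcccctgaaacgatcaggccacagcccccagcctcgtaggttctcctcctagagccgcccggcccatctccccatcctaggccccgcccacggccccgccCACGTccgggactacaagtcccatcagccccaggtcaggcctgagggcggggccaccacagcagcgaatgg
In the Got1 stretch all 5 marked runs are CCAAT boxes, and Idh1 has 1, in the upstream of its RefSeq windows. Pdk3 has 1 CCAAT box and 1 ACGTG, Acly 1 ACGTG read on the other strand, and Sdha 3 NRF1 matches with 1 CCAAT box and 1 ACGTG. RefSeq windows were matched for 33 of the 37 members. The CCAAT box was in a window of 21 of them (63.6%), where 37.5% of 27025 genes had it. These genes were not limited to those tested here, and a gene counted where any of its windows matched. ACGTG was in 11 (33.3%), where 18.5% of genes had it, NRF1 in 3 (9.09%), where 4.23% had it, and CCGGAAG in 3 (9.09%), where 7.83% had it. The Got1 stretch, from a gene whose PD libraries lay below the controls, and the Idh1 stretch, from one whose PD libraries lay above them, share the CCAAT box. A match describes the letters of the window and was not tested as a site.

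Outside the set, 30 further genes of the pathway were read, among them complex assembly factors, lipoate enzymes, mitochondrial carriers and lactate enzymes. In edgeR 0 of the 30 passed in each comparison, with 3, 2 and 1 at an unadjusted p under 0.05 in the same order as above (10.8%, 11.3% and 11.5% of all genes), and their median log2 fold change was 0.03 with PD and 0.08 with YZ9. The nearest to the threshold was Slc16a1, the plasma membrane carrier of lactate and pyruvate, at 139 and 124 CPM in PD, 147 and 195 CPM in YZ9, and 85.9 and 91.8 CPM in controls. Both inhibitor groups lay above both controls (YZ9 log2 fold change 0.95, SE 0.18, unadjusted p = 0.00152, adjusted p = 0.199, and PD 0.56, SE 0.18, adjusted p = 0.309). Gpt2, which makes alanine from pyruvate in mitochondria, was at 83.0 and 61.9 CPM in PD, 56.8 and 71.8 CPM in YZ9, and 45.6 and 33.9 CPM in controls (PD 0.87, SE 0.24, adjusted p = 0.247, and YZ9 0.69, adjusted p = 0.377). Acss1, the mitochondrial acetyl-CoA synthetase that uses acetate, was at 15.8 and 30.8 CPM in PD, 3.54 and 8.09 CPM in YZ9, and 8.96 and 5.23 CPM in controls. The PD libraries were above the other 4 (1.71 against control, SE 0.53, adjusted p = 0.295, and 1.99 against YZ9, SE 0.54, adjusted p = 0.277). Slc25a10, the dicarboxylate carrier, had 0.79 with YZ9 against control (adjusted p = 0.467), and Me3, another mitochondrial malic enzyme, had 1.02 with PD against YZ9 (adjusted p = 0.478). Slc16a1 had -0.38 with PD against YZ9 (adjusted p = 0.486). Some alternatives called these genes. Slc16a1 with YZ9 against control passed in 3 of 19 alternatives (lowest adjusted p 0.00158) and Gpt2 with PD against control in 2 of 20 (0.0457). Acss1 passed in 3 of 20 with PD against control (0.0149) and in 3 of 19 with PD against YZ9 (0.00501). These were DESeq2 fits and the edgeR fit without the filter, which each called over 2% of the genes they tested. The comparisons of the 2 inhibitors with control share the control libraries, so their values are not independent.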

How the data were processed

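Per the submitters' processing notes, CASAVA 1.8.2, STAR 2.7.9a and DESeq2 1.40.1 were used with the build GRCm38; the counting tool and the annotation release were not given in the sources used here. Libraries came from a low-input template-switching kit, which keeps no strand, per the labels' protocols. The deposited data are a table for PD and controls and a table for YZ9 and controls. Per the file headers, each gives every library's whole-number count for 46078 genes. The control counts are the same in both, so a single table of 6 libraries was formed. The deposited normalized columns hold a signal, each count divided by 1 size factor per library. The deposited test columns come from the authors' DESeq2: a log2 fold change with its error, a test statistic (score), a p-value and an adjusted p-value. They were used only where the authors' deposited table is named.

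Genes were filtered with filterByExpr (minimum count 10, minimum total 15), scaled by TMM and tested in R 4.3.3 with edgeR 4.0.16 (glmQLFit, glmQLFTest), all 6 libraries in 1 fit, 2-sided, adjusted by Benjamini-Hochberg over 15568 genes at a threshold of 0.05. Standard errors were derived from the fold change and its F statistic, and 95% intervals use the t quantile of the fit. CPM use TMM-scaled library sizes, and per-kb values the summed exon length of GENCODE M21, which also gave positions. Alternatives used limma 3.58.1 and DESeq2 1.42.0. Total counts were 21253194 to 27810161, and replicates differed by a chi-square of 51.9 to 90.7 per gene, where sampling alone gives about 1. No libraries were therefore merged, and for most members replicate spread, not depth, limits the precision. The chi-square is a mean over all genes tested, so it does not settle this for members with few counts, such as Pdk4 and Pcx. Other genes with a near-identical stretch (at least 95% identity over 300 bases, BLAST 2.17.0) held at most 0.382% of a member's counts. That value is of Map3k15, which overlaps Pdha1. The Me1 copies Gm48795 and Gm7049 were not among the listed genes, so no counts could be read for them. Whether reads shared by a member and a copy were dropped was not tested. Promoter windows come from RefSeq (GRCm38.p6). The pipeline was tested on simulated data.

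The members and lists were chosen with earlier results of these data known. Named members were the 6 with the smallest p in each comparison and 12 set by name, and of the other pathway genes the 3 with the smallest p. Pdp2 falls outside these sets, and its values per library are given beside those of Pdp1, the other phosphatase. Sdha and the genes whose promoters are printed were chosen after their values were seen.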

Additional observations from a re-analysis of the deposited data

Results flagged for a closer look

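For 3 of the 37 genes, both PD libraries lay on one side of both controls and both YZ9 libraries on the other. That is 8.11% of the members, where 3.58% of the 15568 genes tested did so, and per total counts in place of TMM it was 1 member, Got1 (2.7%), and 4.07% of all genes. Pdk3 under TMM was above the controls with PD and below with YZ9, a difference between the inhibitors of 0.58 on the log2 scale (edgeR adjusted p = 0.349). Sdha under TMM was likewise above with PD and below with YZ9, with a log2 fold change of 0.19 for PD against YZ9 (edgeR adjusted p = 0.590). Got1 was below with PD and above with YZ9, with a log2 fold change of -0.62 for PD against YZ9 (edgeR adjusted p = 0.250). The difference passed for none of the 3 over all genes, and both contrasts use the same controls.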

How the results depend on the processing

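No member was called under 17 of 20 alternatives with PD against control, 18 of 19 with YZ9 against control and 18 of 19 with PD against YZ9. In the order PD against control, YZ9 against control and PD against YZ9, members called were 1 (Idh1), 1 (Acly) and 0 without the filter on low counts. They were 1 (Pdp1), 0 and 0 with DESeq2 without the filter and 1 (Pdp1), 0 and 1 (Got1) with DESeq2 on the filtered genes. Leaving out any library gave 0.

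The count over all genes, in the same order 15, 1 and 19, moved more. It was 712, 556 and 601 without the filter, 622, 501 and 525 with DESeq2 without it, and 629, 519 and 534 with DESeq2 after the filter. A covariate for sex gave 124, 122 and 173, the male libraries alone 428, 183 and 132, and leaving out both libraries lowest in blood markers 276, 138 and 41. The 4 libraries of a comparison gave 5 for YZ9 against control and 0 for PD against YZ9, where limma-trend gave 34, edgeR's newer fit 29 and total counts without TMM 9. Leaving out 1 library gave 0 to 33, 0 to 9 and 0 to 35. Where a group kept 1 library, it was assumed to vary like the others. The libraries lowest in blood markers were PD replicate 1 and YZ9 replicate 1, both male. Without them, PD and YZ9 each kept 1 library, a female one, and both controls are male. In that fit, treatment and sex cannot be told apart in the counts against control, which therefore do not show an effect of blood content. The causes were not tested.

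Replicate numbers are shared between groups but nothing says that they pair libraries, and deviations of same-numbered libraries correlated at 0.377 (PD and YZ9), -0.117 (PD and control) and 0.248 (YZ9 and control). With the replicate block 1, 3 and 12 genes were called and 0 members. With crossed numbers as a block, in the 4 libraries of PD against control, 61 genes and 0 members were called.

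Of the named genes, Pdk2 with PD against control, at 0.25 on the log2 scale, changed sign. It was -0.089 with sex in the model, -0.26 in the male libraries alone, and -0.26 to 0.62 over the fits that left out 1 library. The blood-marker exclusion, DESeq2 after the filter, total counts without TMM and the crossed block were chosen after seeing the data. With 2 libraries a group, depth is not the limit for most members, and Pdk4 and Pcx have the fewest counts.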
